A study of Mus musculus with 2 samples.

Results

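The 10 genes described here belong to the circadian clock: Dbp, Tef, Nr1d1, Nr1d2, Per1, Per2, Per3, Arntl, Clock and Cry1. They are the rows of both gene tables that carry these symbols, 10 of 32285 genes, read in barcodes with at least 500 detected genes and at most 15% mitochondrial UMIs (unique molecular identifiers, each standing for a captured transcript molecule). They were selected on their UMI levels and on their ratios between these 2 libraries, so every level and ratio below is a description and carries no test. The study profiled mouse aortic leukocytes, sorted for the pan-leukocyte antigen CD45, by droplet sequencing of transcript 3′ ends, to see what an siRNA preparation named ZnDPA@siIRF5 does to macrophages of the lesion. There was 1 library per group: the library labelled treated came from mice given ZnDPA@siIRF5, and the library labelled control from a control group. The labels give no genotype, strain, diet, dose, duration, age or number of animals for either group, nor the hour at which tissue was taken. What the groups share is the tissue, the aorta, and the CD45+ gate. Treatment, hour of collection, animals and library therefore cannot be told apart in any ratio given here.

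The molecular clock is a feedback loop of transcription. BMAL1, the product of Arntl, pairs with CLOCK on E-box sequences and switches on the Per and Cry genes, whose products return to block it, while the REV-ERB receptors encoded by Nr1d1 and Nr1d2 repress Arntl through ROR elements. Dbp and Tef encode related leucine zipper factors that carry the rhythm to output genes through D-box sequences. In tissues with a running clock, Arntl peaks at about the opposite time of day to Nr1d1 and Dbp. Macrophages, neutrophils and lymphocytes are all known to hold such a clock.

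Values given in pairs put the library labelled treated first and the library labelled control second. Filtering and removal of doublet calls left 11805 and 11523 cells, with median depths of 4543 and 4629 UMIs. Clusters formed without the clock genes gave 11 leukocyte classes with at least 100 cells per library, holding 10760 and 10614 cells. Classes were named from marker lists, so the same markers are no independent check of the names. Among the 11 classes, all 13 macrophage, 15 T cell and 11 B cell markers were highest in their own class. For neutrophil-like cells 6 of 11 were, while S100a8, S100a9, Retnlg, Mmp8 and Ly6g were highest in granulocyte precursor-like cells. The migratory DC-like cluster also carried Cd209a, a marker of another dendritic type, and the granulocyte precursor-like cluster was led by Camp, Ngp and Ltf together with 3 neutrophil markers. Irf5, the target of the siRNA, was lower in the library labelled treated beyond counting error in 0 of 11 classes and higher in 3. Over all genes, 13.7% of gene and class pairs were higher in this way and 13.0% lower. Macrophage-like cells held 123 and 112 CPM of Irf5 (scaled counts, defined below). Whether the siRNA acted on Irf5 was not tested. The libraries are called by their labels throughout. Immunoglobulin transcripts took 5.40% and 15.3% of all UMIs. They were also present in macrophage-like cells, at 993 and 3342 CPM. With CPM taken outside immunoglobulin, mitochondrial and ribosomal protein genes, 5 clock genes were at least 1.5-fold higher and 0 lower by the class-adjusted ratio, the same numbers as without that change. The libraries shared 37 barcodes among kept cells.

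Levels are given as CPM, the UMIs of a gene scaled to 1000000 UMIs of all cells of that class in that library. A class-adjusted ratio combines the 11 classes as strata, so that their shares of the cells do not enter (a Mantel-Haenszel rate ratio, on the log2 scale). All intervals are 95% intervals and cover counting error only, because there is no replicate. Log2 ratios divide the treated label by the control label, so values above 0 are higher in the library labelled treated, and a gene counts as measured in a class with at least 20 UMIs over both libraries. Counting error is not the whole error of such ratios: over all genes, 13.7% of gene and class pairs had an interval above 0 and 13.0% one below. At the edge of the cell filter the 10 genes summed to 386 and 304 CPM in barcodes with 400 to under 500 genes, just outside it, and to 324 and 208 CPM in those with 500 to under 600 genes, just inside. Around the mitochondrial limit the sums were 418 and 393 CPM at 10% to 15% and 433 and 264 CPM at 15% to 20%.

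**Figure D1:**
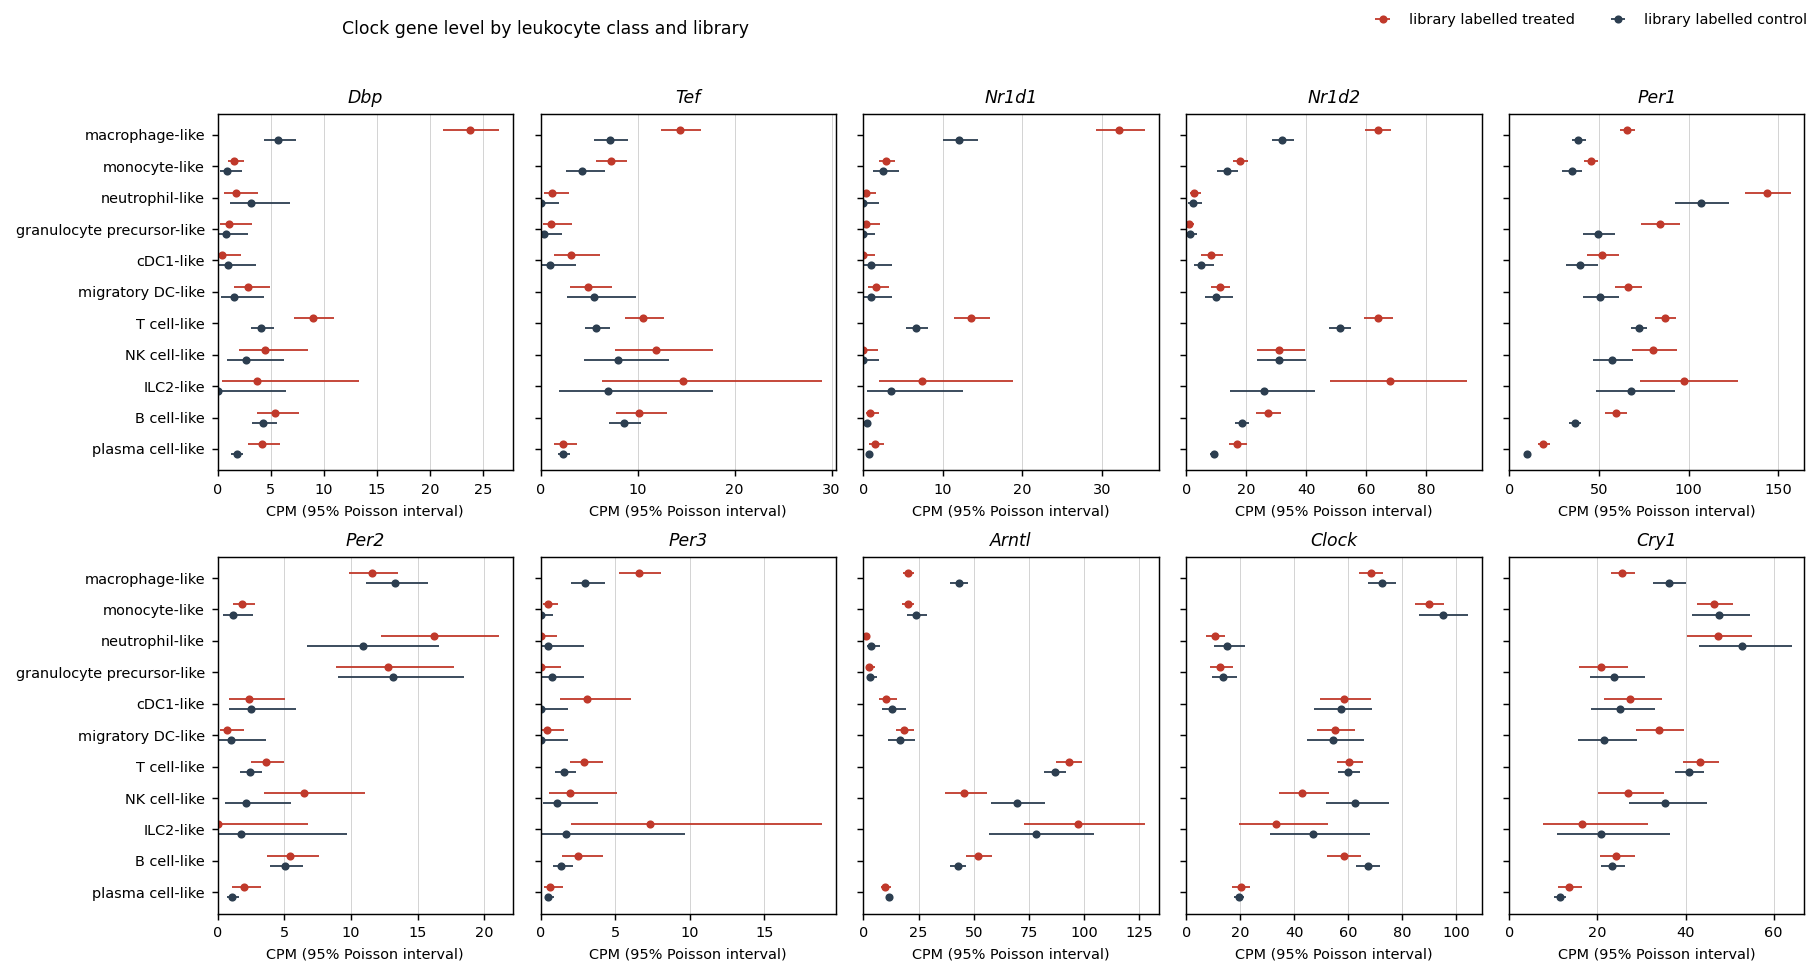
Level of each of the 10 clock genes (horizontal axis, CPM, with its 95% Poisson interval) in 11 leukocyte classes (vertical axis) of the library labelled treated (red) and the library labelled control (dark). The red points of Dbp and Nr1d1 stand highest in macrophage-like cells, at 23.7 and 32.2 CPM, while Arntl is highest in T cell-like and ILC2-like cells and near 0 in neutrophil-like cells.

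The clock genes were spread unevenly over the leukocytes, and the order of the classes was much the same in both libraries. Arntl, the core activator, had its highest levels in T cell-like cells, at 93 and 86.8 CPM, and in ILC2-like cells, the innate lymphocytes of type 2 responses, at 97.5 and 78.1 CPM. The intervals of those classes overlapped in each library. Neutrophil-like cells held 1.16 and 3.63 CPM of Arntl and granulocyte precursor-like cells 2.55 and 3.18 CPM, the lowest of the 11 classes. Per1, a repressor that also responds to hormones and stress signals, ran the other way in these cells: neutrophil-like cells were its highest class, at 144 and 107 CPM, above the next class beyond counting error in both libraries. Clock, the partner of BMAL1, was highest in monocyte-like cells, at 89.9 and 94.9 CPM. Neutrophil-like cells also held the top Cry1 levels, 47.3 and 52.8 CPM, though with intervals that overlapped those of monocyte-like cells, 46.6 and 47.7 CPM. Clock was lowest in neutrophil-like and granulocyte precursor-like cells of both libraries, at 10.4 to 15 CPM.

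Nr1d1 was largely seen in macrophage-like and T cell-like cells. Macrophage-like cells were its highest class in each library, T cell-like cells the next, and NK cell-like cells had 0 UMIs in 405 and 428 cells, which allows shares of up to 0.741% and 0.701% of cells with a UMI (3 cells of the total, a limit set for a count of 0). Nr1d2, its paralogue, was broader, with 51.2 CPM in T cell-like cells and 31.0 CPM in NK cell-like cells of the library labelled control. Per2, another period gene of the negative limb, was highest in macrophage-like cells, granulocyte precursor-like cells and neutrophil-like cells of the library labelled control, at 13.3, 13.1 and 10.9 CPM with overlapping intervals. Across the 11 classes, Pearson's r between the 2 libraries on the log2(CPM + 5) scale was 0.98 for Nr1d1, 0.98 for Per1, 0.97 for Clock, 0.96 for Arntl and 0.96 for Nr1d2. It was lower for Dbp, 0.76, and Per3, 0.74. Both had few UMIs in most classes, as did Nr1d1, and why r differed was not tested. These 11 points share the same 2 libraries and the same clustering, and the values only describe how alike the orders are.

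Short promoter stretches are shown for the genes whose window held a clock motif, because E-boxes and D-boxes are where the factors encoded by Arntl, Clock, Dbp and Tef act. RefSeq windows of GRCm38.p6, 250 bases before each start site, were at hand for 9 of the 10 genes, 14 windows in all. The motifs searched on both strands were the E-box CACGTG, the D-box TTATGTAA or TTACGTAA, the ROR element TAGGTCA or TGGGTCA, and the cAMP response element TGACGTCA. Of 32851 windows of this length, 6.02% held the E-box, 0.931% the D-box, 5.38% the ROR element and 1.55% the cAMP response element. CACGTG, TTACGTAA and TGACGTCA read the same on both strands. Each line gives 30 bases, 5′ to 3′ on the gene's strand, with the motif in capitals.
Tef, first start, E-box at chr15:81802534-81802563 (+), in a UTR of a transcript: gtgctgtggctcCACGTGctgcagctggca
Tef, second start, E-box at chr15:81811264-81811293 (+), in an intron of a longer transcript: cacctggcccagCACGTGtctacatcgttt
Per1, E-box at chr11:69098771-69098800 (+), in an intron of a longer transcript: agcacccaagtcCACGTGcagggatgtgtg
Per3, distal D-box at chr4:151044852-151044881 (-), upstream of the gene: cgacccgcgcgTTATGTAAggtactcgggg
Per3, proximal D-box at chr4:151044805-151044834 (-), upstream of the gene: cccgcccgcggTTATGTAAcccccgccgtg
Cry1, E-box at chr10:85185097-85185126 (-), upstream of the gene: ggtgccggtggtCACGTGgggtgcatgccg
The windows of Dbp, Nr1d1, Nr1d2, Arntl and Clock held none of these letters, which says nothing about sites elsewhere in those genes.

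Dbp (ENSMUSG00000059824, chr7:45705088-45710203, + strand, positions here on GRCm38), an output factor driven directly by CLOCK and BMAL1, had the widest gap between the libraries. Macrophage-like cells held 23.7 CPM (21.2 to 26.5; 318 UMIs) against 5.71 CPM (4.32 to 7.40; 57 UMIs). The library labelled treated was thus 4.15-fold higher, a log2 ratio of 2.05 (1.64 to 2.49). In T cell-like cells Dbp stood at 8.93 CPM against 4.08 CPM, a log2 ratio of 1.13 (0.64 to 1.63), and in plasma cell-like cells at 4.18 CPM against 1.80 CPM, a log2 ratio of 1.22 (0.51 to 1.92). The T cell-like clusters, which did not all go this way, are given separately below. B cell-like cells gave 5.40 and 4.28 CPM and monocyte-like cells 1.57 and 0.90 CPM, with ratio intervals that held 0. Its ratio was above 0 in all 5 classes where it was measured. Fewer than 20 UMIs were counted in each of the other 6 classes.

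Dbp UMIs were found in 11.6% and 3.43% of macrophage-like cells, whose median depths were 5948 and 5932 UMIs. With each cell thinned to 2000 UMIs, which left out 208 and 131 shallower cells, the shares were 4.82% (3.88 to 5.91) and 0.865% (0.448 to 1.51). No leukocyte class is known to lack Dbp, so cDC1-like cells, a dendritic class sequenced more deeply at medians of 11857 and 12874 UMIs, are given for comparison: 0.493% and 1.38% of them had a Dbp UMI. No single cell carried the difference, as the most Dbp UMIs in any macrophage-like cell were 9 and 3. The 3′ end of Dbp overlaps Sphk2 on the opposite strand by 737 bases, and whether the counting used strand was not given in the sources used here. Sphk2, a sphingosine kinase, had a class-adjusted log2 ratio of 0.21.

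Tef (ENSMUSG00000022389, chr15:81802421-81826863, + strand), the other leucine zipper factor, went the same way with a smaller gap. Its level was 14.4 CPM (12.4 to 16.6) against 7.11 CPM (5.55 to 8.97) in macrophage-like cells, a log2 ratio of 1.02 (0.62 to 1.43). T cell-like cells held 10.6 against 5.76 CPM, a log2 ratio of 0.88 (0.45 to 1.31), and monocyte-like cells 7.22 against 4.27 CPM, a log2 ratio of 0.76 (0.02 to 1.56). In plasma cell-like cells both libraries stood at 2.35 CPM. Tef was above 0 in 6 of 7 measured classes, the exception being migratory DC-like cells at 4.87 and 5.50 CPM, and 3 of the 7 intervals lay above 0, where 13.7% of all gene and class pairs did.

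The REV-ERB receptors, the repressors of Arntl, were also higher in the library labelled treated. Nr1d1 (ENSMUSG00000020889, chr11:98767932-98775333, - strand) stood at 32.2 CPM (29.3 to 35.4; 432 UMIs) against 12 CPM (9.96 to 14.4; 120 UMIs) in macrophage-like cells, a log2 ratio of 1.42 (1.13 to 1.73). T cell-like cells held 13.5 against 6.60 CPM, a log2 ratio of 1.03 (0.64 to 1.42), which was 0.22 in the 652 and 819 of these cells with at most 1 UMI of B cell, plasma cell or neutrophil markers. Monocyte-like cells, at 2.87 and 2.47 CPM, and plasma cell-like cells, at 1.44 and 0.684 CPM, gave ratios whose intervals held 0. The share of macrophage-like cells with an Nr1d1 UMI was 16% and 6.26%, and 6.90% and 2.31% after thinning to 2000 UMIs. Nr1d1 overlaps Thra, a thyroid hormone receptor gene on the opposite strand, by 1075 bases at their 3′ ends, and reads of that stretch could be split either way if strand was ignored. Thra had 911 UMIs over both libraries and a class-adjusted log2 ratio of 0.32.

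Nr1d2 (ENSMUSG00000021775, chr14:18204054-18239127, - strand) was measured in more classes than Nr1d1. Macrophage-like cells held 63.9 CPM (59.7 to 68.3) and 32.0 CPM (28.6 to 35.8), a log2 ratio of 1.0 (0.81 to 1.19). ILC2-like cells held 68.0 and 26.0 CPM, a log2 ratio of 1.39 (0.49 to 2.36) from only 37 and 15 UMIs, and plasma cell-like cells 17.0 and 9.10 CPM, a log2 ratio of 0.90 (0.57 to 1.22), or 0.49 in the 51 and 184 of these cells that carried no more than 1 UMI of T cell or neutrophil markers. T cell-like cells, its highest class in the library labelled control, differed less, at 64 against 51.2 CPM, a log2 ratio of 0.32 (0.17 to 0.48). NK cell-like cells stood level at 30.8 and 31.0 CPM, with an interval of the log2 ratio from -0.55 to 0.54. Of 9 measured classes, 8 lay above 0 and 5 had intervals above it.

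Per1 (ENSMUSG00000020893, chr11:69095217-69109960, + strand) was the only gene of the 10 to be higher in the library labelled treated in 11 of 11 classes, 9 of them with intervals above 0. Of the 4921 genes measured in every class, 1.67% were above 0 in all 11 and 1.26% below 0 in all 11. Plasma cell-like cells gave its widest gap, 19.1 against 9.83 CPM, a log2 ratio of 0.96 (0.65 to 1.26). Macrophage-like cells held 65.8 against 38.6 CPM, a log2 ratio of 0.77 (0.60 to 0.95), and granulocyte precursor-like cells 83.8 against 49.3 CPM, a log2 ratio of 0.76 (0.44 to 1.09). In granulocyte precursor-like cells the ratio was 0.53 when each cell was given equal weight and 0.39 with at most 1 UMI of other cells' markers. The smallest gap was in T cell-like cells, 87.1 against 72.4 CPM, a log2 ratio of 0.27 (0.14 to 0.40). By its median log2 ratio over classes, 0.49, Per1 ranked 21 of 4710 genes from the top (after the gene families named under the processing were left out), where Clock ranked 3517 and Cry1 2963.

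The other 2 period genes, which share a role in the repressor complex with Per1, were measured in fewer classes. Per2 (ENSMUSG00000055866, chr1:91415982-91459324, - strand) lay above 0 in 5 of 7 measured classes and below it in 2. In 3 of the 7 it was at least 1.5-fold higher, plasma cell-like cells at a log2 ratio of 0.88, monocyte-like cells at 0.70 and T cell-like cells at 0.59, but all 7 intervals held 0. Its macrophage-like level was 11.6 against 13.3 CPM, a log2 ratio of -0.20 (-0.55 to 0.14). Per3 (ENSMUSG00000028957, chr4:151003652-151044665, - strand) was sparse, with 210 and 106 UMIs in all cells of the rule, and measured in 3 classes. It stood at 6.56 against 3.0 CPM in macrophage-like cells, a log2 ratio of 1.13 (0.51 to 1.78), and at 2.91 against 1.55 CPM in T cell-like cells, a log2 ratio of 0.91 (0.07 to 1.78), which turned to -0.36 in the T cell-like cells with at most 1 UMI of other cells' markers. A wholly overlapping gene on the same strand, Camta1, shares 41014 bases with Per3, so reads of the 2 genes could have been confused. Camta1 had a class-adjusted log2 ratio of 0.05.

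Arntl (ENSMUSG00000055116, chr7:113207465-113314126, + strand), the activator that the REV-ERB receptors repress, was lower in macrophage-like cells, where Nr1d1 had its widest gap. Macrophage-like cells held 20.4 CPM (18 to 22.9; 273 UMIs) against 43.3 CPM (39.3 to 47.5; 432 UMIs), a log2 ratio of -1.09 (-1.31 to -0.87). The share of these cells with an Arntl UMI was 10.6% and 20.9%, and 3.78% and 8.29% after thinning to 2000 UMIs. In NK cell-like cells Arntl was also lower, 45.8 against 69.4 CPM, a log2 ratio of -0.60 (-1.0 to -0.21). That gap did not hold when clusters were formed at a resolution of 0.5, where the log2 ratio was -0.15. The highest classes showed no such fall: T cell-like cells had 93 and 86.8 CPM, a log2 ratio of 0.10 (-0.02 to 0.22), and ILC2-like cells a log2 ratio of 0.32 (-0.28 to 0.93). Whether the ratio differs between classes was not tested.

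B cell-like cells were made up of 2 clusters, and their class ratios differed from those inside the clusters. Their Arntl level was 52.1 against 42.8 CPM, a log2 ratio of 0.28 (0.08 to 0.49), yet inside the class the ratio was 0.05 (-0.18 to 0.27) in the cluster led by Bank1 and Ebf1 and 0.20 (-0.38 to 0.74) in the cluster led by Rgs13. The Rgs13 cluster made up 7.19% and 19.3% of B cell-like cells and held less Arntl, 32.3 and 28.1 CPM against 56.5 and 54.7 CPM. Nr1d2 behaved likewise, with a log2 ratio of 0.56 (0.26 to 0.85) for the class but 0.21 (-0.11 to 0.52) and 0.15 (-1.07 to 1.2) in the same clusters. For Per1 the ratio was 0.69 (0.49 to 0.90) for the class, 0.46 (0.24 to 0.68) in the Bank1 and Ebf1 cluster and 0.18 (-0.49 to 0.80) in the Rgs13 cluster.

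Clock and Cry1 stayed closer to 0. Clock (ENSMUSG00000029238, chr5:76209868-76304792, - strand) was at 68.4 and 72.3 CPM in macrophage-like cells, a log2 ratio of -0.08 (-0.22 to 0.06), and 9 of its 11 intervals held 0. The other 2, below 0, were NK cell-like cells, 42.8 against 62.5 CPM, a log2 ratio of -0.55 (-0.97 to -0.13), and B cell-like cells, -0.21 (-0.39 to -0.02). Cry1 (ENSMUSG00000020038, chr10:85131700-85185064, - strand), whose product is a partner of the period proteins in repression, was lower in macrophage-like cells, 25.7 against 36.3 CPM, a log2 ratio of -0.50 (-0.72 to -0.28). In migratory DC-like cells it was higher, 33.9 against 21.5 CPM, a log2 ratio of 0.66 (0.16 to 1.18), though -0.42 in the 15 and 6 of these cells with at most 1 UMI of other cells' markers. The remaining 9 classes of Cry1 had intervals that held 0.

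**Figure D2:**
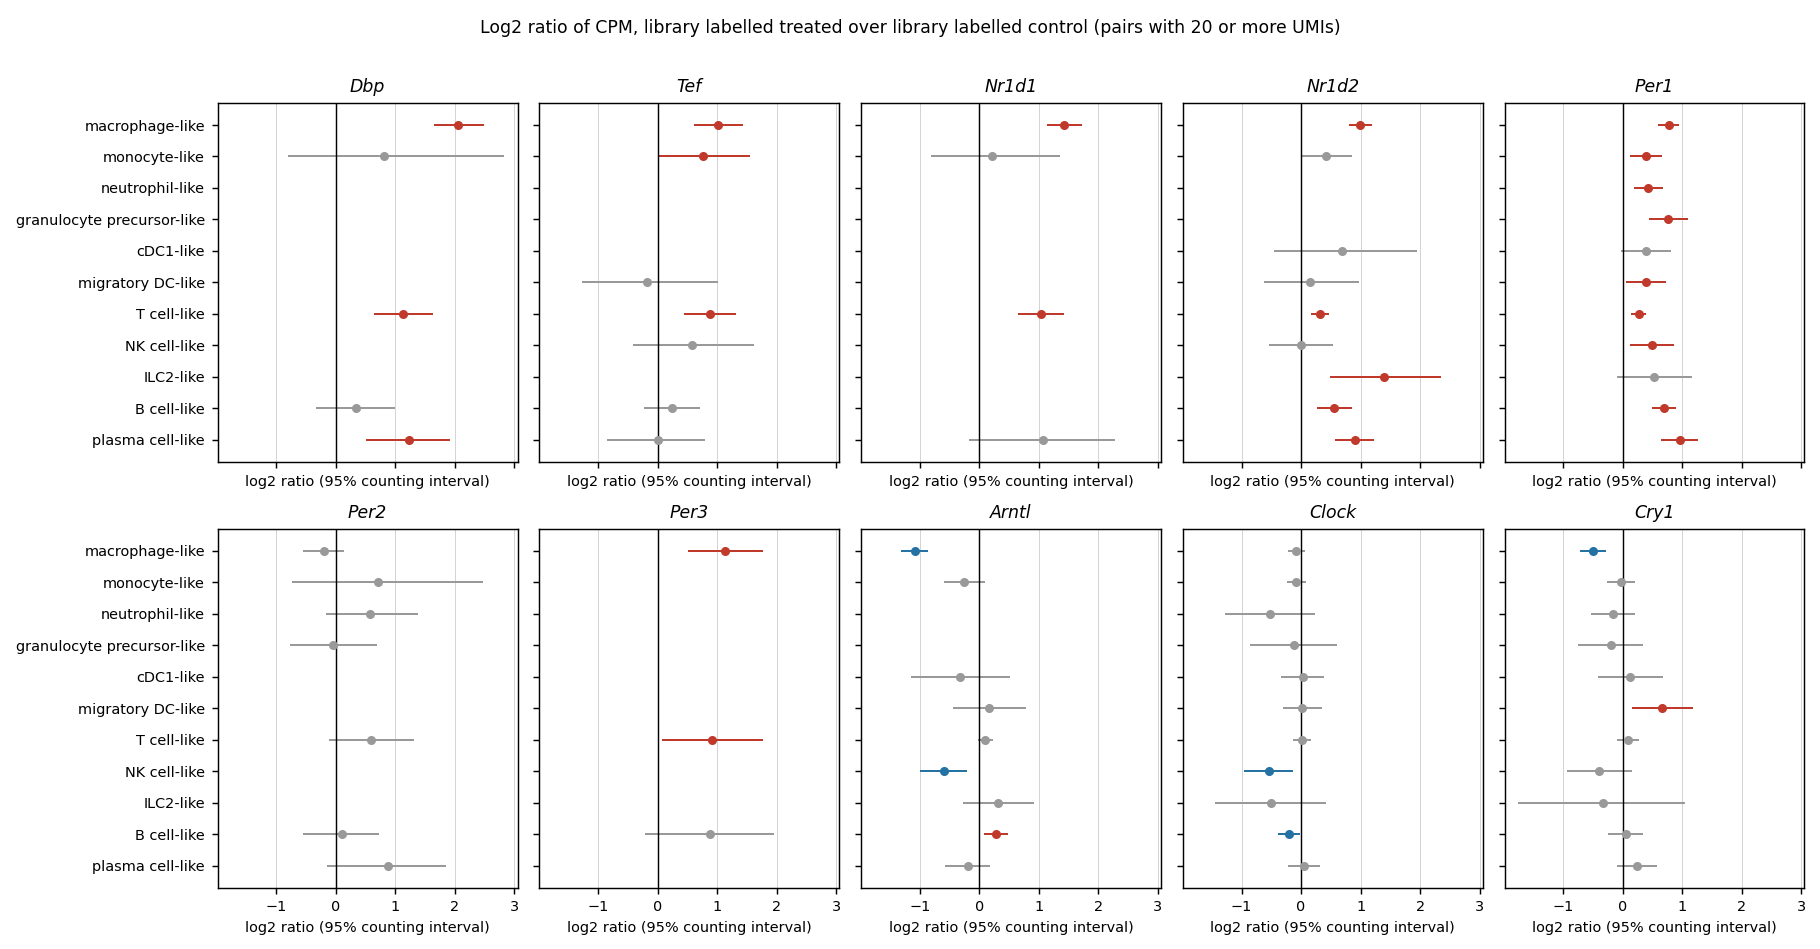
Log2 ratio of CPM, library labelled treated over library labelled control (horizontal axis, with the exact 95% counting interval), of each clock gene in the classes (vertical axis) where it had at least 20 UMIs. Red marks intervals above 0, blue intervals below 0 and grey intervals that hold 0. Per1 lies right of 0 in 11 of 11 classes, and Arntl lies left of 0 at -1.09 in macrophage-like cells.

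Of 77 measured pairs of a clock gene and a class, 26 had intervals above 0 and 5 below, against the 13.7% and 13.0% of all gene and class pairs. By size, 25 of the 77 were at least 1.5-fold higher in the library labelled treated and 2 at least 1.5-fold lower. Over all gene and class pairs, 8.31% were that much higher and 8.87% that much lower. In macrophage-like cells 6 of 10 clock genes were at least 1.5-fold higher and 1 was lower, where 4.66% and 7.28% of 12864 genes were. All 7 of these stayed past 1.5-fold under every alternative that gave a value for the class. T cell-like cells had 5 of 10 higher and 0 lower, against 5.86% and 3.71% of all genes, and plasma cell-like cells 5 of 9 higher and 0 lower, against 12.4% and 9.71%. Monocyte-like cells had 3 of 9 higher and 0 lower (6.30% and 6.57% of all genes), and B cell-like cells 2 of 9 and 0 (8.44% and 11.4%). Under at least 1 alternative, 3 of the 5 T cell-like and 3 of the 5 plasma cell-like pairs fell below 1.5-fold. So did 2 of the 3 monocyte-like and 2 of the 2 B cell-like pairs.

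The remaining classes held few measured clock genes past that size. Migratory DC-like cells had 1 of 6 higher and 0 lower (11.8% and 6.45% of all genes), cDC1-like cells 1 of 5 and 0 (9.06% and 5.48%) and ILC2-like cells 1 of 5 and 0 (10.8% and 12.8%). Granulocyte precursor-like cells had 1 of 4 and 0 (7.60% and 24.3%), NK cell-like cells 0 of 6 and 1 (7.16% and 6.56%) and neutrophil-like cells 0 of 4 in either direction (9.73% and 9.14%). With so few genes measured, these counts are no result about them. Since the 10 genes were picked with these values known, the counts only describe them. Across the 11 classes, 14 of the 27 pairs past 1.5-fold fell under it in at least 1 alternative, none of them in macrophage-like cells.

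Among the classes with Nr1d1 measured, macrophage-like cells had the widest change of Nr1d1 against Arntl. The count of Nr1d1 UMIs for each Arntl UMI, which does not depend on how the libraries are scaled, was 1.58 (1.36 to 1.85) against 0.28 (0.22 to 0.34). For Dbp the counts per Arntl UMI were 1.16 (0.99 to 1.37) and 0.13 (0.10 to 0.17). In T cell-like cells the Nr1d1 values were 0.15 (0.12 to 0.17) and 0.08 (0.06 to 0.09), and in monocyte-like cells, at 0.14 (0.10 to 0.21) and 0.10 (0.05 to 0.19), the intervals overlapped. Other cells' transcripts were present in these macrophage-like cells: neutrophil markers at 795 and 471 CPM, plasma cell markers at 328 and 416 CPM, T cell markers at 129 and 182 CPM and B cell markers at 129 and 276 CPM, beside 15513 and 16930 CPM of macrophage markers. In the 301 and 161 macrophage-like cells with at most 1 UMI of those other markers, the log2 ratio was 2.38 for Dbp, 1.21 for Nr1d1 and -1.29 for Arntl.

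**Figure D3:**
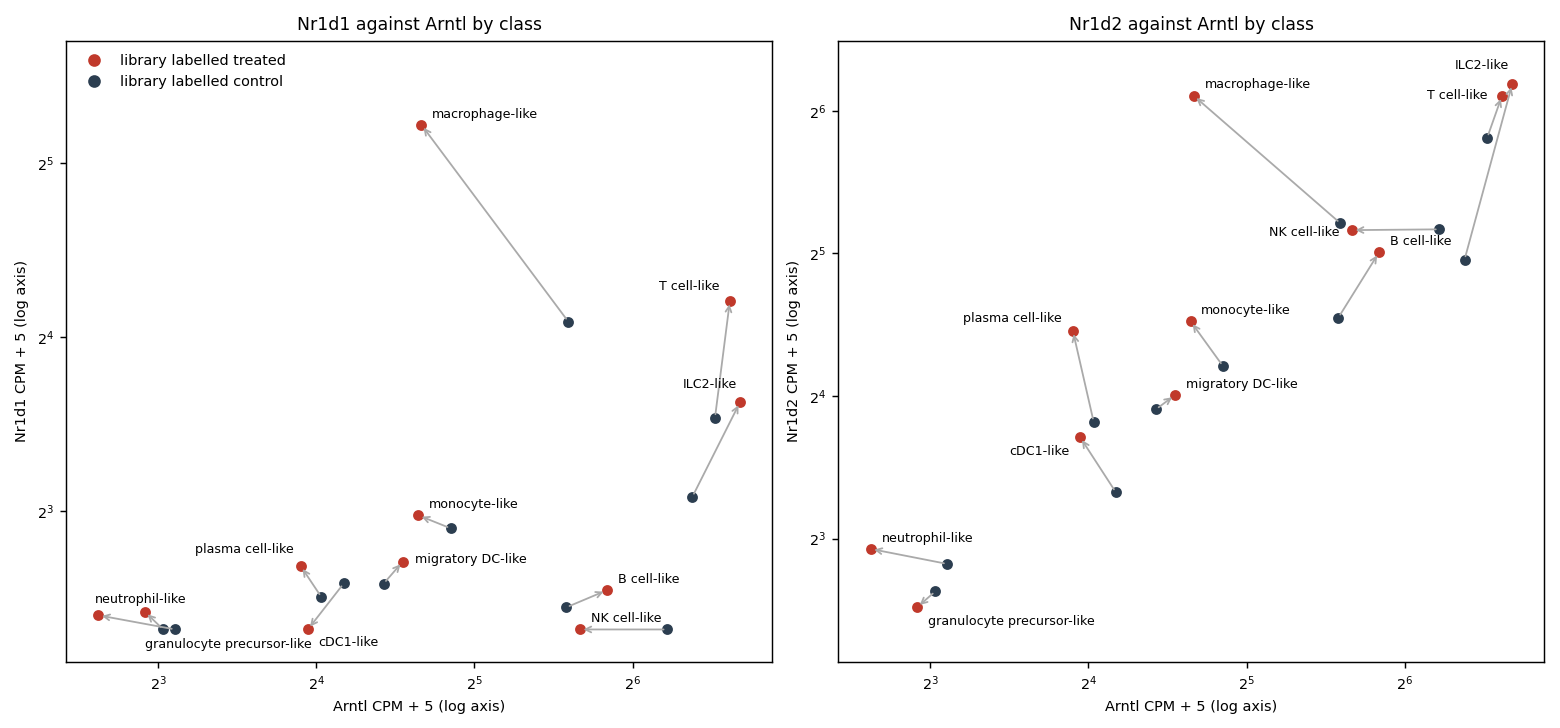
Nr1d1 (left) and Nr1d2 (right) against Arntl in each class, both as CPM + 5 on log axes. Arrows run from the library labelled control (dark) to the library labelled treated (red). The macrophage-like arrow runs up and to the left in both panels, from 43.3 to 20.4 CPM of Arntl, while the T cell-like arrow runs up and slightly to the right. The ILC2-like arrow of the left panel rests on 4 and 2 UMIs of Nr1d1.

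The macrophage-like class had 2 clusters, and the gaps of Dbp, Nr1d1 and Arntl were wider in the one led by Lyve1, Folr2 and Cd163, genes of resident tissue macrophages. The clusters named in this paragraph and the next were chosen after their values were seen. This cluster, with 763 and 665 cells, held 42.9 CPM of Dbp (212 UMIs) against 5.56 CPM (23 UMIs), a log2 ratio of 2.95 (2.32 to 3.64), and Dbp UMIs were in 20.1% and 3.46% of its cells. Nr1d1 stood at 64.6 against 19.6 CPM, a log2 ratio of 1.72 (1.37 to 2.09), and Arntl at 22.3 against 59.2 CPM, a log2 ratio of -1.41 (-1.75 to -1.08). The cluster led by Spp1, Trem2 and Gpnmb, genes of lipid-laden macrophages, showed the same directions, given here with the log2 ratio and its interval: Dbp 12.5 against 5.82 CPM (1.11, 0.54 to 1.71), Nr1d1 13.3 against 6.67 CPM (1.0, 0.46 to 1.56) and Arntl 19.3 against 32.0 CPM (-0.73, -1.04 to -0.42). Tef and Per3 had wider log2 ratios in the Spp1 cluster, 1.19 and 1.57, than in the Lyve1 cluster, 0.94 and 0.91, with overlapping intervals. In the Lyve1 cluster 6 of 10 clock genes were at least 1.5-fold higher and 2 lower, against 7.20% and 6.98% of all genes there. In the Spp1 cluster 6 were higher and 1 lower, against 5.58% and 7.08%. Median depths were close, 5937 and 5731 UMIs in the Lyve1 cluster and 5968 and 6109 in the Spp1 cluster.

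Among T cell-like cells most Nr1d1 UMIs came from the cluster led by Trdc, Cd163l1 and Il23r, genes of gamma delta T cells. Its 566 and 798 cells, 27.4% and 25.8% of the class, held 91.4% and 87.2% of the class's Nr1d1 UMIs, and 72.8% and 46.6% of its Dbp UMIs. Nr1d1 stood at 55.5 against 30.5 CPM, a log2 ratio of 0.86 (0.45 to 1.28), Dbp at 29.3 against 10.1 CPM, 1.54 (0.88 to 2.25), and Tef at 16.6 against 3.35 CPM, 2.31 (1.24 to 3.54). Arntl, which was higher there than in any of the 11 classes, stood level: 193 and 203 CPM, a log2 ratio of -0.08 (-0.26 to 0.11). In the cluster led by Lef1 and Sidt1, with genes of naive T cells, Nr1d2 was level at 42 and 41.7 CPM and Arntl lower, 39.0 against 50.5 CPM (-0.37, -0.68 to -0.08). In the cluster led by St8sia1 and Cd4, Arntl was higher, 112 against 87.4 CPM (0.35, 0.08 to 0.63). Dbp had 7 and 16 UMIs in the Lef1 cluster, a log2 ratio of -0.58 (-2.10 to 0.78). It had 11 and 6 UMIs in the St8sia1 cluster and 6 and 7 in the cluster led by Gzmk and Ccl5. Nr1d1 had 1 and 5, 9 and 4, and 2 and 3 UMIs in these clusters, in the same order. A cluster led by Tnfrsf4 and Izumo1r scored closest to T cells but stayed unnamed, so it is outside the class. Its 270 and 513 cells held 1 and 10 Dbp UMIs, 0.725 against 4.27 CPM, and 2 and 2 of Nr1d1, too few to count as measured. Of 9 measured clock genes in the Trdc cluster, 4 were at least 1.5-fold higher and 0 lower, against 7.16% and 5.54% of all genes. Over the 21 leukocyte clusters with at least 50 cells per library, unnamed ones included, Per1 was above 0 in 21 of 21. Of its intervals, 12 lay above 0. The same count was not made for all genes.

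**Figure D4:**
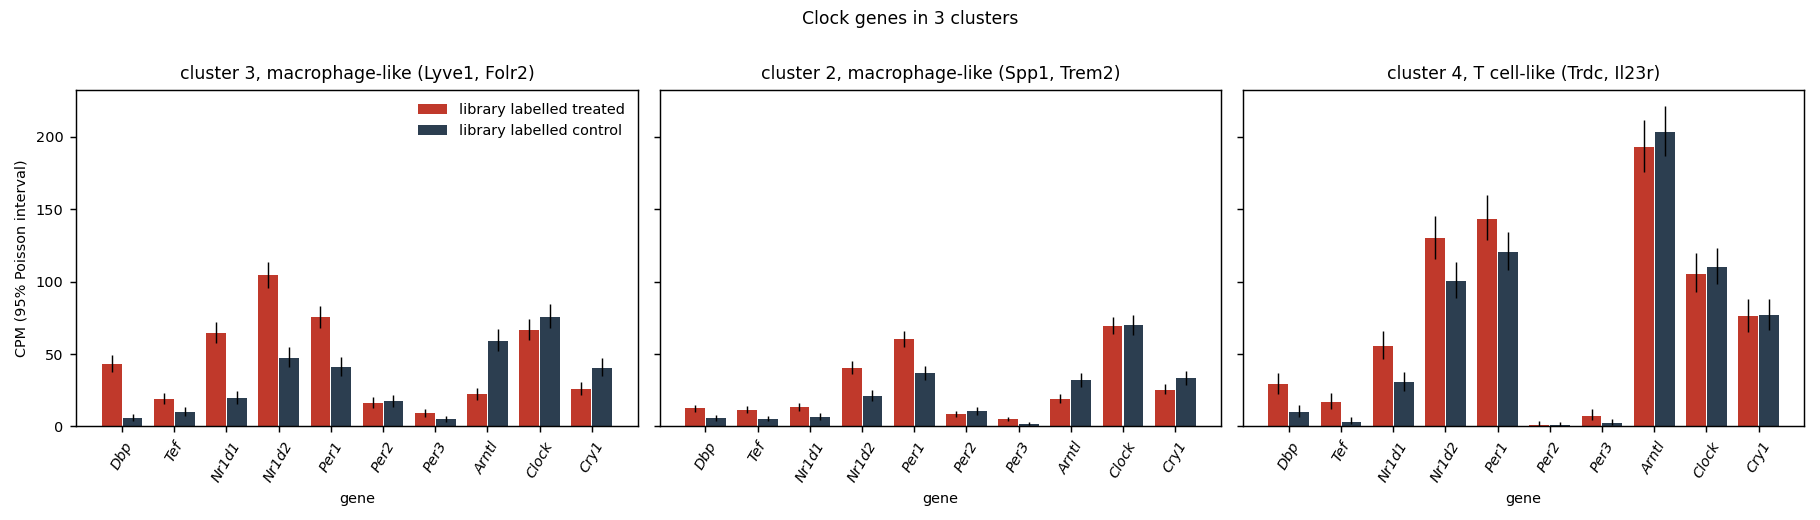
Level (vertical axis, CPM, bars from 0 with 95% Poisson intervals) of the 10 clock genes in 2 macrophage-like clusters and 1 T cell-like cluster of the library labelled treated (red) and the library labelled control (dark). In the Lyve1 and Folr2 cluster the Arntl bars stand at 22.3 against 59.2 CPM and the Nr1d2 bars at 104 against 47.6 CPM, whereas in the Trdc and Il23r cluster the Arntl bars stand at 193 and 203 CPM.

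The share of each class differed between the libraries, with plasma cell-like cells at 3.35% and 10.7% of kept cells and monocyte-like cells at 15.2% and 5.89%. The class-adjusted ratio was therefore used to describe each gene by 1 value. It was 1.37 (1.13 to 1.60) for Dbp, 1.21 (1.0 to 1.43) for Nr1d1 and 1.04 (0.65 to 1.44) for Per3 on the log2 scale. Tef followed at 0.69 (0.49 to 0.90), Nr1d2 at 0.60 (0.50 to 0.69) and Per1 at 0.51 (0.44 to 0.58). Per2 gave 0.13 (-0.09 to 0.35), Cry1 -0.05 (-0.14 to 0.04), Clock -0.08 (-0.15 to -0.01) and Arntl -0.12 (-0.20 to -0.04). Thus 5 of 10 clock genes were at least 1.5-fold higher and 0 at least 1.5-fold lower, where 3.08% and 3.86% of 14763 genes were. The median of all genes was -0.0035 and their central 95% ran from -0.71 to 0.64. When cells were limited to 1 UMI of other cells' markers, only Dbp, 1.34, and Nr1d1, 0.63, stayed past 1.5-fold. Tef was then 0.55, Nr1d2 0.46, Per3 0.45 and Arntl 0.0018. Nr1d2 also fell under 1.5-fold, to between 0.48 and 0.56, with at least 1000 genes per barcode, at clustering resolution 2, with equal weight per cell, with clusters as strata and after thinning.

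**Figure D5:**
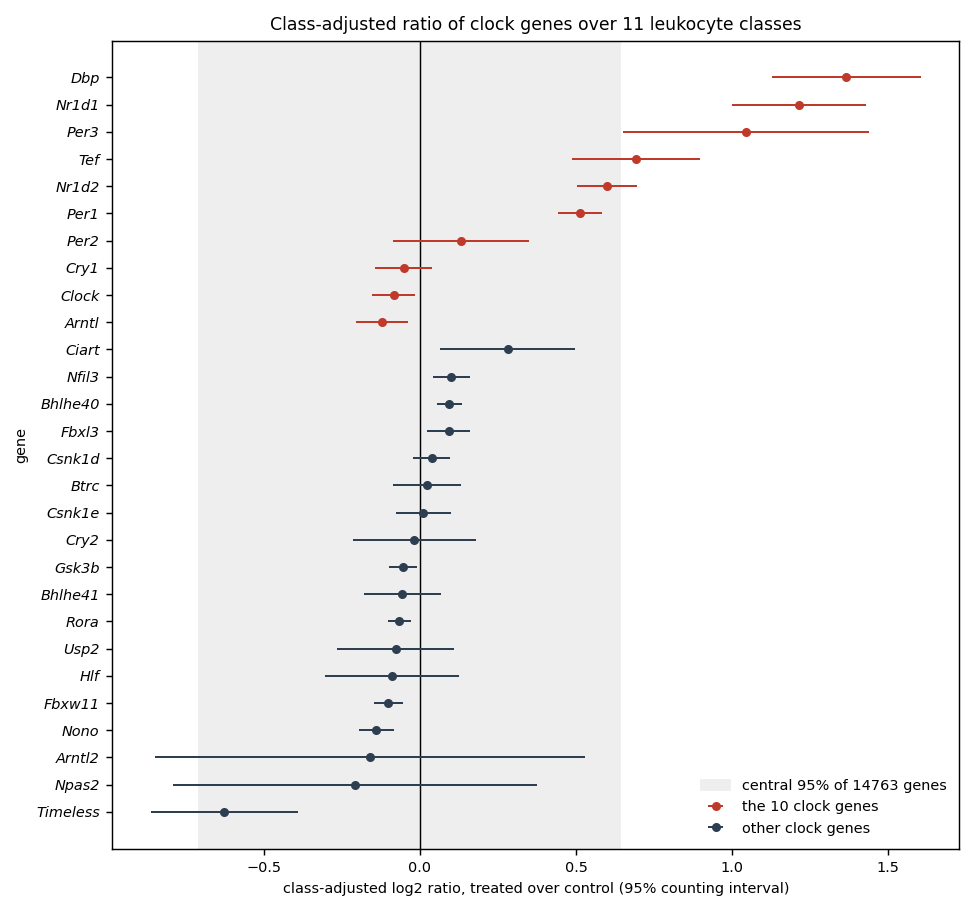
Class-adjusted log2 ratio, library labelled treated over library labelled control (horizontal axis, with 95% counting interval), of the 10 clock genes (red) and 18 further clock genes with at least 50 UMIs (dark). The grey band is the central 95% of 14763 genes. Dbp, Nr1d1, Per3 and Tef lie right of the band, and none of the 18 further genes does.

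Per3, with a pair of D-boxes 158 and 205 bases before its start, and Tef, with an E-box 127 and 138 bases before its starts, were at least 1.5-fold higher by the class-adjusted ratio. Per1, with an E-box 166 bases before 1 of its starts, was at 0.51, and Cry1, with an E-box 60 bases before its start, at -0.05 with an interval that held 0. Dbp, the gene with the highest ratio of the 10, had no match in its window.

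The rest of the clock machinery had mostly small class-adjusted ratios. Of 19 measured genes among 21 further clock genes (kinases, ubiquitin ligases and other regulators), 0 were at least 1.5-fold higher and 1 lower, 8 lay above 0 and 11 below, and the median class-adjusted log2 ratio was -0.05. The lower gene was Timeless, -0.63, which also serves DNA replication. It was lower in B cell-like cells, a log2 ratio of -1.48 (-2.04 to -0.96), and plasma cell-like cells, -1.59 (-2.63 to -0.69), while macrophage-like cells gave 0.40 (-0.26 to 1.09). Both B lineage classes also differed in their make-up: the Rgs13 cluster held 68 and 361 B cell-like cells, and the smaller plasma cell-like cluster 21 and 184 cells. The part of these shares in the Timeless ratio was not tested. Ciart, a repressor in the same loop, was at 0.28, Npas2, a stand-in for CLOCK, at -0.21, Arntl2 at -0.16 and Nono at -0.14. In macrophage-like cells Ciart stood at 12.9 and 10.1 CPM, a log2 ratio of 0.35 (-0.01 to 0.72). Usp2, a deubiquitinase known as a rhythmic output, was lower there, 5.97 against 10.7 CPM, a log2 ratio of -0.84 (-1.28 to -0.41), opposite to Dbp. Of 151 measured pairs of a further clock gene and a class, 4 were at least 1.5-fold higher and 9 lower, where 8.31% and 8.87% of all gene and class pairs were. Among these pairs, chosen after their values were seen, Bhlhe40, a repressor acting at E-boxes, was higher in plasma cell-like cells, 14.9 against 5.34 CPM, a log2 ratio of 1.48 (1.1 to 1.86). Rora, a receptor that acts at ROR elements, was lower in NK cell-like cells, 243 against 454 CPM, a log2 ratio of -0.90 (-1.07 to -0.74).

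Genes known as clock output were mixed. Of 18 measured, 1 was at least 1.5-fold higher (Elmo3, 0.75, from 32 and 29 UMIs) and 0 lower, 10 lay above 0 and the median was 0.11. Tspan4, at 0.52, Klf10 and Klf9, Krüppel-like factors both at 0.27, Nampt, an enzyme of NAD synthesis at 0.26, and Pim3, a kinase at 0.23, followed. Among 9 measured genes known to be repressed by REV-ERB receptors, 0 passed 1.5-fold either way, 3 lay above 0 and 6 below, with a median of -0.07. Over all genes, 49.3% lay above 0. The cytokine Il6, 0.51, and the protease Mmp9, 0.34, lay above 0, as did Nfil3, a repressor acting at D-boxes, at 0.10. Those below 0 included Npas2, -0.21, as well as Arntl, -0.12, and Clock, -0.08, which belong to the 10 genes described here.

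Per1 also answers glucocorticoids, cAMP and stress, so lists of such genes were read beside it. All 14 immediate early genes lay above 0, where 49.3% of all genes did, with a median of 0.19 and none past 1.5-fold. Those nearest 0 were Junb, 0.0009 (-0.01 to 0.01), and Ier3, 0.02 (-0.0031 to 0.04), both with intervals that held 0, and Jund, 0.08, was above 0 in 4 of 11 classes only. Nr4a1 and Egr2 stood at 0.41, Atf3 at 0.38, Zfp36 at 0.35, Btg2 at 0.34 and Egr1 at 0.28. Of 14 glucocorticoid responsive genes, a list that holds Per1 itself, 1 was at least 1.5-fold higher and 1 lower, and 9 lay above 0, with Tsc22d3, the leucine zipper gene GILZ, at 0.59, Fkbp5 at 0.37 and Cxcr4 at 0.36, but Cd163 at -0.73 and Errfi1 at -0.41. Cxcr4, a chemokine receptor, and Btg2 were above 0 in 11 of 11 classes, as Per1 was. Among 11 temperature responsive genes, 1 was at least 1.5-fold higher and 0 lower: the heat shock gene Hspa1b was at 0.81, Hspa1a at 0.39, Hsph1 at 0.28, Hsp90aa1 at -0.19 and the cold-inducible Cirbp at -0.37, below 0 in 11 of 11 classes. Rbm3, the other cold-inducible gene of the list, went the other way at 0.14, above 0 in 9 of 11 classes. The part of these genes' changes in that of Per1 was not tested.

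By the median log2 ratio over classes, the genes highest in the library labelled treated were Acod1 (1.18), Lars2 (0.95), S100a8 (0.83), S100a4 (0.82), Thbs1 (0.74), S100a6 (0.66), Ctdsp2 (0.63) and Tgm2 (0.61). Only Lars2, a mitochondrial leucyl-tRNA synthetase, and S100a6 among these 8 were above 0 in 11 of 11 classes, as Per1 was. The class-adjusted ratios of Acod1 and S100a8 were only 0.15 and 0.09, while those of the others ran from 0.44 for Ctdsp2 to 0.93 for Lars2. The lowest were Jchain (-1.45), Mzb1 (-1.29), Cd79a (-1.22), Ccr7 (-1.16), Slpi (-1.03), Ebf1 (-0.97), Pclaf (-0.65) and Bank1 (-0.65), in large part genes of B and plasma cells. For Jchain, Cd79a and Bank1 the class-adjusted ratio had the other sign, at 0.31, 0.18 and 0.30. In their pattern over the 22 class and library values on the log2(CPM + 5) scale, the genes most like Nr1d1 were Maf (Pearson's r 0.83), Serpinb6a (0.81), Selenop (0.81), Arhgap10 (0.78) and Psd3 (0.76). Those most like Arntl were Maml2 (0.96), Kdsr (0.95), Gprasp1 (0.95), Edc4 (0.94) and Map2k5 (0.94). Those most like Dbp were Wwp1 (0.70), Serpinb6a (0.68), Hsbp1 (0.65), Impact (0.65) and Psd3 (0.64). These r values describe 22 points that share libraries and classes, among 4710 genes compared. The class-adjusted log2 ratios of the 5 genes most like Dbp ran from -0.05 for Psd3 to 0.16 for Impact, against 1.37 for Dbp.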

How the data were processed

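The files hold UMI counts per gene and barcode, deposited without normalization. Per the labels' protocols, libraries came from a 10x Genomics 3′ kit. Cell Ranger 3.1.0 with build mm10, and Seurat 4.4.0, are named in the submitters' processing notes, while the file headers name Cell Ranger 7.2.0. Strand and intron settings were not given in the sources used here. Together the libraries held 13155 (treated) and 12516 (control) barcodes with 77856529 and 88567528 UMIs. Barcodes under 500 genes (511 and 352), then over 15% mitochondrial UMIs (178 and 126), were removed. Scrublet in scanpy 1.11.5 called 684 (5.20%) and 533 (4.26%) doublets against 10.5% and 10.0% expected, so some doublets remain. The 2000 most variable genes without clock genes (3 left out), 30 components and 15 neighbours entered Leiden clustering at resolution 1. Of 26 clusters, 4 stayed unnamed (609 and 717 cells). A name needed 3 markers detected in 10% of cells and at least 1 among the top 10 genes. In addition, no other class could have more markers among those 10. Levels have exact Poisson, shares Clopper-Pearson, ratios exact conditional binomial and class-adjusted ratios Greenland-Robins intervals. Only the Greenland-Robins intervals were tried on simulated counts, which held counting error alone. PCR and capture bias are not covered. With 1 library per group no test was run. Gene positions follow GENCODE vM21 on GRCm38. Up to 6 genes of each list with the largest class-adjusted ratio and 50 UMIs are named, with the 8 highest and 8 lowest medians over classes and the 5 genes most like Dbp, Nr1d1 and Arntl. Mitochondrial, ribosomal, haemoglobin, sex-linked, predicted, immunoglobulin and T cell receptor genes were left out of these rankings. The members, gene lists, marker lists and tests were chosen with earlier results of these data known. A gene that these rules would name is not reported here. Alternatives covered doublets, depth, scaling, clustering, cell weighting, other cells' markers and strata.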

Additional observations from a re-analysis of the deposited data

Results flagged for a closer look

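Arntl and Cry1 had ratios of opposite sign in different classes, with counting intervals that excluded 0 on both sides. The log2 ratio of Arntl, library labelled treated over library labelled control, was -1.09 in macrophage-like cells and -0.60 in NK cell-like cells but 0.28 in B cell-like cells. That of Cry1 was -0.50 in macrophage-like cells and 0.66 in migratory DC-like cells. These differences between classes were not tested, as there is 1 library per group. The B cell-like value rests on a class whose 2 clusters gave 0.05 and 0.20, each with an interval that held 0. The migratory DC-like value of Cry1 rests on 153 and 43 UMIs.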

How the results depend on the processing

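The class-adjusted log2 ratio of each clock gene was recomputed under 11 alternatives. Of these 110 values, 97 stayed inside the counting interval of the reported value, 11 moved out of it and 2 changed sign. With at most 1 UMI of other cells' markers per cell, Nr1d1 was 0.63, Nr1d2 0.46, Per1 0.42, Per3 0.45, Clock -0.18 and Cry1 0.044, and Arntl changed sign to 0.0018. With cells thinned to 2000 UMIs, Dbp was 1.65, Nr1d2 0.48, Per1 0.39 and Per2 0.36, and Clock changed sign to 0.011. With the mean over cells, Per1 was 0.43. The number of genes at least 1.5-fold higher was 5 as reported, 2 under the marker limit, and 4 or 5 under each of the other 10 alternatives. Of 673 values within classes, 645 stayed, 25 moved and 3 changed sign, all 3 under the marker limit: Per1 and Cry1 in migratory DC-like cells, both -0.42 from 15 and 6 cells, and Per3 in T cell-like cells, -0.36. That limit left far fewer cells; the cause was not tested. In macrophage-like cells, Dbp was 2.56 and Arntl -1.37 with at least 1000 genes per barcode. Scaling by the median gene moved no class by more than 0.052.

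No paired analysis was possible because each group has 1 library. Depth limits Per3, Nr1d1 and Dbp most: they reached 20 UMIs in 3, 4 and 5 of 11 classes. A single library per group means that no ratio has a replicate error, and 13.7% and 13.0% of all gene and class pairs had counting intervals above and below 0.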
